A study of Mus musculus with 12 samples.

Results

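Kelch-repeat adaptors are one class of substrate receptors of cullin-RING ubiquitin ligases. Their mRNA levels were examined in mouse microglia that met neurofilament light chain (NfL). The genes were chosen by name: every protein-coding gene of the GENCODE M21 annotation whose symbol is Klhl, Kbtbd or Klhdc followed by a number. There were 55 such genes among the 52636 gene identifiers counted, 36 Klhl, 9 Kbtbd and 10 Klhdc genes. Of these, 40 passed a filter on low counts that 14687 genes passed in all, and this filter on counts over all libraries is the one measured value that the rule uses. The filter kept 27 Klhl, 7 Kbtbd and 6 Klhdc genes.

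Primary microglia came from the brains of newborn wild-type C57BL/6 mice and were shaken off mixed glial cultures, plated at 50000 cells per well with serum and 2.5 ng of the growth factor CSF1, and treated for 24 h. One group received 5 µg of full-length NfL, another 5 µg of coiled-coil NfL, and the third a vehicle. NfL helps to build the axonal skeleton and is released when neurons are damaged. The coiled-coil form is named for the rod-like middle part of the protein. There were 4 libraries per treatment, spread over 4 batches with every treatment present once in each, so same-numbered libraries are paired. The labels do not say whether batches were separate cultures or litters, so p-values measure only the spread between these samples, and cultured cells in serum stand for microglia only in part.

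Total counts ran from 20162427 to 31048044 per library. The 12 microglial markers summed to 10180 to 11270 CPM (counts relative to library size, scaled with TMM factors) with full-length NfL, 11070 to 12450 CPM with coiled-coil NfL and 10900 to 13440 CPM with vehicle. Lymphocyte and neutrophil markers summed to at most 0.477 CPM in any library, and the T cell markers Cd3e and Cd3g and the NK cell marker Ncr1 had 0 counts in all. Markers of neurons, astrocytes, the oligodendrocyte lineage, fibroblasts, endothelial cells and border-associated macrophages were not absent, and their values are given below.

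As background, a kelch-BTB protein binds the cullin CUL3 through its BTB and BACK domains and holds a substrate on its kelch propeller, so that the RING protein RBX1 and a ubiquitin-conjugating enzyme can ubiquitinate it. The best known member in macrophages is KEAP1, which holds back the antioxidant factor NRF2 and whose gene name lies outside the naming rule. The label of kelch-BTB adaptors holds for the Klhl and Kbtbd genes. The Klhdc genes encode kelch proteins that lack a BTB domain, and KLHDC2, KLHDC3 and KLHDC10 instead serve the cullin CUL2, where they read the carboxy-terminal ends of proteins.

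In the fit without the pairing, 11 of the 40 kelch-family genes that passed the filter were lower with full-length NfL than with vehicle. None was higher, at an adjusted p under 0.05 (edgeR quasi-likelihood test, Benjamini-Hochberg adjustment over all tested genes). With the batch as a block, 3 were higher, as given below. The 11 lowered genes were Klhl23, Klhl38, Klhl21, Klhl9, Klhl24, Klhl42, Klhl25, Klhl7, Klhl3, Klhl2 and Klhdc2. The share called was 27.5%, near the background of 24.9% of all tested genes called in either direction. The share called lower was likewise 27.5%, beside 10.9% of all tested genes, and the share called higher was 0%, beside 14%. By sign alone, 27 of the 40 had a negative change and 13 a positive one, with a median log2 change of -0.17 beside -0.02 for all tested genes. These counts describe the genes that passed and carry no test of the list. They include Klhl38 and Klhl3, which passed the filter through the other groups, where they were higher. Only 2 and 1 of their full-length libraries reached the filter's level of 0.395 CPM. The counts by sign also include Klhl35, Klhl33 and Klhl32, which reached it in 0, 1 and 1 full-length libraries. These averaged lower with full-length NfL than with vehicle, whereas Kbtbd6, which reached it in 2, averaged slightly higher. With a filter at a mean of 1 CPM, 23 of 34 members were negative and 11 positive. The median was then -0.12, beside -0.0055 for all tested genes.

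The counts depended on the batch term, on a trend with GC content and length, and on single libraries. With the batch (replicate number) as a block, 14 were lower and 3 higher, beside 22.4% and 21.4% of all tested genes, and the share called of 42.5% was near the 43.8% of all tested genes. With a trend on GC content and exon length removed from each library, 6 were lower and 3 higher, beside 7.44% and 16.3% of all tested genes. With that trend removed and the block together 12 were lower and 5 higher, beside 18% and 28.5%. Leaving out 1 library gave 5 calls without full-length NfL replicate 2 or 4 or vehicle replicate 1 or 4, 6 without full-length NfL replicate 3 or vehicle replicate 2, 7 without coiled-coil NfL replicate 4, and 9 to 12 without any other library. The 5 calls were 12.5% of the members, below the 16% to 18.7% of all tested genes called in the same fits, and the 6 calls were 15%, below 17.8% and 21.5%. All of these 5 or 6 calls were lower, beside 6.67% to 9.38% of all tested genes called lower. The 7 calls were 17.9% of the members, below the 22.2% of all tested genes. The 9 to 12 calls were 22.5% to 30%, near the 23.6% to 27.5% of all tested genes. Klhl23, Klhl21 and Klhl9 were lower and called under all 23 alternatives run, and Klhl38 under all 22 in which it was tested. Klhl38, however, passed the filter only through the groups where it was higher.

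**Figure D1:**
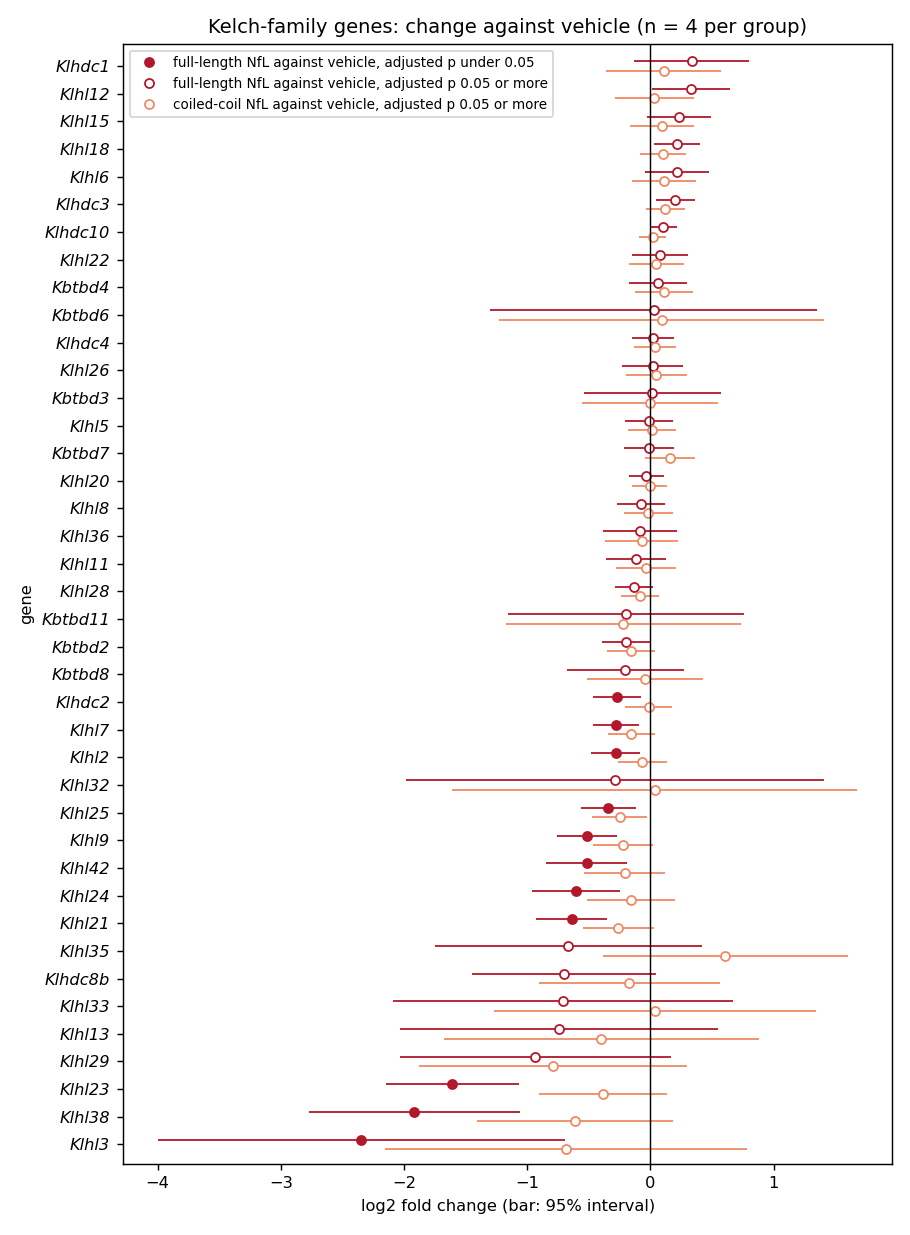
Log2 fold change against vehicle of the 40 kelch-family genes that passed the count filter, with full-length NfL (dark red) above coiled-coil NfL (orange) on each row; bars are 95% intervals and filled points have an adjusted p under 0.05. The 11 filled points, from the fit without the batch block, all lie below 0 and belong to full-length NfL.

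The summed counts of all 55 genes took 0.0981% to 0.106% of a library's counts with full-length NfL, 0.107% to 0.125% with coiled-coil NfL and 0.114% to 0.131% with vehicle. The full-length and vehicle ranges do not overlap. Klhl24 and Klhl9, the highest of the family in CPM, were both among the lowered genes. In RNA from whole cultures, fewer cells of a type and less RNA per cell cannot be told apart.

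Klhl23 (ENSMUSG00000042155, GRCm38 chromosome 2, 69821944 to 69836651) was the member with the smallest p. Its level in batches 1 to 4 was 4.11, 3.42, 2.80 and 3.42 CPM with full-length NfL, 10.5, 6.30, 7.42 and 7.95 CPM with coiled-coil NfL, and 8.90, 10.7, 6.75 and 15.7 CPM with vehicle. The 4 full-length libraries lay below all 8 others. The mean was 3.44 ± 0.53 CPM with full-length NfL, against 10.5 ± 3.79 CPM with vehicle (SD, n = 4 each), a log2 change of -1.61 ± 0.25 (SE; adjusted p = 0.00144, edgeR). It was also the 1 member that differed between the NfL forms, at a log2 change of -1.23 ± 0.25 for full-length against coiled-coil NfL (edgeR adjusted p = 0.0304).

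Klhl38 (ENSMUSG00000022357, chromosome 15, 58314573 to 58324169) had few reads. It measured 0.577, 0.281, 0.460 and 0.237 CPM with full-length NfL, 1.64, 0.715, 0.803 and 0.768 CPM with coiled-coil NfL, and 2.04, 1.63, 0.884 and 1.47 CPM with vehicle, in batches 1 to 4. Those levels rest on 5 to 17 counts per library with full-length NfL and 22 to 47 with vehicle. The full-length libraries were below all others, and the change against vehicle was -1.92 ± 0.39 (log2; adjusted p = 0.00553, edgeR). Only 2 of the 4 full-length libraries reached the filter's level of 0.395 CPM, so the gene passed through the other groups. An antisense gene, Gm15943, shares 62.6% of its 50-base windows, but had at most 11 counts in any library.

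KLHL9, KLHL13 and KLHL21 are CUL3 adaptors that move the mitotic kinase Aurora B in human cells, and KLHL21 has also been tied to the kinase IKK-beta. Klhl21 (ENSMUSG00000073700, chromosome 4, 152008803 to 152017680) measured 21.1, 16.9, 19.6 and 16.2 CPM with full-length NfL, 30.4, 21.0, 22.4 and 22.1 CPM with coiled-coil NfL, and 33.6, 26.6, 27.5 and 27.2 CPM with vehicle. Full-length and vehicle libraries did not overlap, at a log2 change of -0.64 ± 0.13 (adjusted p = 0.00595, edgeR). Klhl9 (ENSMUSG00000070923, chromosome 4, 88718292 to 88722465) measured 98.7, 81.5, 99.8 and 86.3 CPM with full-length NfL, 133, 93.4, 122 and 100.2 CPM with coiled-coil NfL, and 138, 121, 131 and 134 CPM with vehicle. It too had no overlap between full-length and vehicle libraries, at -0.52 ± 0.11 (log2; adjusted p = 0.00707, edgeR). Aurkb, which encodes Aurora B, had a change of -0.04 ± 0.41 that was not called (log2; edgeR adjusted p = 0.944).

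Klhl13 (X chromosome, 23219271 to 23365082), the closest relative of Klhl9, followed the batch. It measured 6.21, 10.8, 2.39 and 11.0 CPM with full-length NfL, 8.86, 13.2, 2.56 and 13.7 CPM with coiled-coil NfL, and 10.0, 19.0, 3.66 and 18.1 CPM with vehicle. In each batch the order was full-length NfL lowest and vehicle highest, and batch 3 was the lowest in each group. Batch accounted for 90.8% of the variance of its log2 level and treatment for 8.71%. Its change of -0.74 ± 0.59 was not called (log2; edgeR adjusted p = 0.375), whereas the fit with the replicate block gave -0.72 ± 0.10 (adjusted p = 0.000238).

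Markers of other brain cells also varied with batch and treatment. The 10 neuron markers summed to 48.4, 33.4, 16.5 and 44.7 CPM with full-length NfL, 76.1, 50.3, 26.7 and 75.1 CPM with coiled-coil NfL, and 74.3, 89.2, 31.3 and 102 CPM with vehicle, in batches 1 to 4. Batch 3 was the lowest in each group, as for Klhl13, whereas in batch 1 the vehicle sum was not the highest. Of the 9 that passed the filter, 2 were lower with full-length NfL (Rbfox3 and Gad1), and 8 with the block. The 10 astrocyte markers summed to 24.1 to 39.3 CPM with full-length NfL, 24.4 to 55.3 CPM with coiled-coil NfL and 26.7 to 63.5 CPM with vehicle, with 1 lower, and 8 lower with the block. The 10 oligodendrocyte-lineage markers summed to 249.7 to 264 CPM with full-length NfL, 241 to 297 CPM with coiled-coil NfL and 243 to 278 CPM with vehicle, a sum carried mostly by Mbp and Cnp. Of the 9 that passed the filter, Mag was higher and none lower, but the median log2 change was -0.60, and with the block 5 were lower and 2 higher. Fibroblast and mural markers summed to 1.52 to 6.01 CPM with full-length NfL, 1.80 to 8.13 CPM with coiled-coil NfL and 4.58 to 9.38 CPM with vehicle, with none of 5 called and 2 lower with the block. Endothelial markers summed to 37.6 to 49.5, 51.0 to 73.05 and 46.05 to 101 CPM with full-length NfL, coiled-coil NfL and vehicle. Of 4 tested, 1 was higher and 1 lower. Border-associated macrophage markers summed to 1079 to 1571, 1140 to 1918 and 1119 to 2119 CPM in the same order. Of 4 tested, 1 was lower (median log2 change -0.75), and with the block 2 were lower and 1 higher. The part of such cells in the lower kelch-family levels was not tested.

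Upstream sequence is shown for Klhl23, Klhl21 and Klhl9, the 3 lowered members called under all alternatives for which RefSeq gives a start. Each line holds the 250 bases before a RefSeq start (GRCm38.p6), 5′ to 3′ on the gene's strand, and for Klhl23, which has 3 starts, before the first of them. Capitals mark a TGACTCA match, the letters bound by the stress-responsive AP-1 factors.
Klhl23, chr2:69821691-69821940, plus strand: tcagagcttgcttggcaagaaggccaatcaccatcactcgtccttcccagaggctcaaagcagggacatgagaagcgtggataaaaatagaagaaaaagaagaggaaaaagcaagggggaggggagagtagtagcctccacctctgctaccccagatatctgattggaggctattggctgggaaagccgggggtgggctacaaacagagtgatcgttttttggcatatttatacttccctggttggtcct
Klhl21, chr4:152008641-152008890, plus strand: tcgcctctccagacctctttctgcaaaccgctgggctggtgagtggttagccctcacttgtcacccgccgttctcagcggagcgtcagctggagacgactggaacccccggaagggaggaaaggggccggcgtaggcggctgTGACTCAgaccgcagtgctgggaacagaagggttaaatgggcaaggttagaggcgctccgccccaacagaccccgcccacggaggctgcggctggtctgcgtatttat
Klhl9, chr4:88722509-88722758, minus strand: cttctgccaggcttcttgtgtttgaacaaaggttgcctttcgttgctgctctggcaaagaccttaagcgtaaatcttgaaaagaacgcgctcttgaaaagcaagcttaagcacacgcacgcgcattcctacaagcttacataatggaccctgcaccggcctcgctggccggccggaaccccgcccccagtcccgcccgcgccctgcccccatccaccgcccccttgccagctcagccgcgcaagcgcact
Such windows were searched on both strands for the E-box, spelled CACGTG, and for the cyclic AMP response element, spelled TGACGTCA. The AP-1 letters above, the FOXO forkhead letters GTAAACA, and the antioxidant response element in the form TGACNNNGC were searched in the same way, all chosen after the results were seen. RefSeq gave 10 starts for 8 of the 11 lowered genes, and the single match was the TGACTCA that begins 108 bases before the start of Klhl21. Among all 32851 promoters, 6.02% held the E-box, 1.55% the cyclic AMP element, 4.46% the AP-1 letters, 3.17% the FOXO letters and 10.2% the antioxidant element. A match is a description of the letters and not a site.

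Klhl24 (ENSMUSG00000062901, chromosome 16, 20097542 to 20129221), whose human product targets a skin keratin, had the highest CPM of the family. It measured 117, 109, 146 and 111 CPM with full-length NfL, 208, 124, 188 and 136 CPM with coiled-coil NfL, and 211, 155, 182 and 184 CPM with vehicle. The full-length and vehicle libraries did not overlap, whereas coiled-coil libraries spread over both ranges. The change against vehicle was -0.60 ± 0.16 (log2; edgeR adjusted p = 0.0197), but -0.41 ± 0.18 (adjusted p = 0.123) once the GC and length trend was removed.

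Klhl25, whose product targets a repressor of translation, 4E-BP1, and the lipid enzyme ATP citrate lyase, measured 22.5, 21.7, 21.3 and 20.9 CPM with full-length NfL, 27.5, 23.5, 20.6 and 20.6 CPM with coiled-coil NfL, and 30.8, 27.4, 24.3 and 27.1 CPM with vehicle. Its change was -0.34 ± 0.10 (log2; edgeR adjusted p = 0.0304), with no overlap of full-length and vehicle libraries. Klhl42, whose product targets the microtubule-severing protein katanin, measured 17.01, 10.9, 16.3 and 15.4 CPM with full-length NfL, 21.1, 15.8, 19.8 and 17.1 CPM with coiled-coil NfL, and 18.1, 21.2, 20.7 and 25.2 CPM with vehicle. The gap between the full-length and vehicle libraries was small, from 17.01 to 18.1 CPM, and the change was -0.52 ± 0.15 (log2; edgeR adjusted p = 0.0275).

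KLHL2, an actin-binding adaptor, and KLHL3 both hand WNK kinases to CUL3, a task of KLHL3 best known from salt handling in the human kidney. Klhl2 measured 26.6, 25.7, 28.6 and 30.5 CPM with full-length NfL, 37.6, 28.9, 28.9 and 33.9 CPM with coiled-coil NfL, and 33.9, 35.3, 32.8 and 33.4 CPM with vehicle. The vehicle libraries lay close together and above all full-length ones, at a log2 change of -0.28 ± 0.09 (edgeR adjusted p = 0.0421), which was -0.11 ± 0.09 (adjusted p = 0.397) once the GC and length trend was removed. Klhl3 was near the lower limit of the counts, at 0.441, 0.121, 0.042 and 0.285 CPM with full-length NfL, 1.49, 0.617, 0.151 and 0.614 CPM with coiled-coil NfL, and 1.30, 1.22, 0.241 and 1.95 CPM with vehicle. Its groups overlapped through vehicle batch 3, although the full-length library was the lowest of its batch each time. These were 1 to 13 counts per library with full-length NfL and 6 to 45 with vehicle. Its fitted change was -2.35 ± 0.76 (log2; edgeR adjusted p = 0.0413), with 1 full-length library at the filter's level.

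Klhl7, which encodes an adaptor mutated in a human retinal disease, measured 31.1, 34.4, 27.5 and 32.9 CPM with full-length NfL, 38.9, 33.4, 32.2 and 32.8 CPM with coiled-coil NfL, and 41.2, 36.02, 36.4 and 39.2 CPM with vehicle. The full-length and vehicle ranges stood apart, at -0.28 ± 0.09 (log2; edgeR adjusted p = 0.0355). For the CUL2 receptor gene Klhdc2, levels were 23.9, 21.0, 20.5 and 22.6 CPM with full-length NfL, 27.8, 24.7, 26.9 and 25.8 CPM with coiled-coil NfL, and 27.8, 23.7, 24.7 and 30.2 CPM with vehicle. Its full-length and vehicle libraries overlapped slightly, at 23.9 and 23.7 CPM, and the change was -0.27 ± 0.09 (log2; edgeR adjusted p = 0.0444). Several of these calls rested on single libraries. Klhl24 lost its call without full-length NfL replicate 2 or 4 or vehicle replicate 1, and Klhl42 without full-length NfL replicate 2 or 4 or vehicle replicate 2 or 4. Klhl25 lost it without full-length NfL replicate 2, 3 or 4 or vehicle replicate 1, 2 or 4. Klhl7, Klhl3 and Klhl2 each lost it in 8 of the 12 fits that left out a library, and Klhdc2 in 9, with adjusted p up to 0.146 (edgeR).

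**Figure D2:**
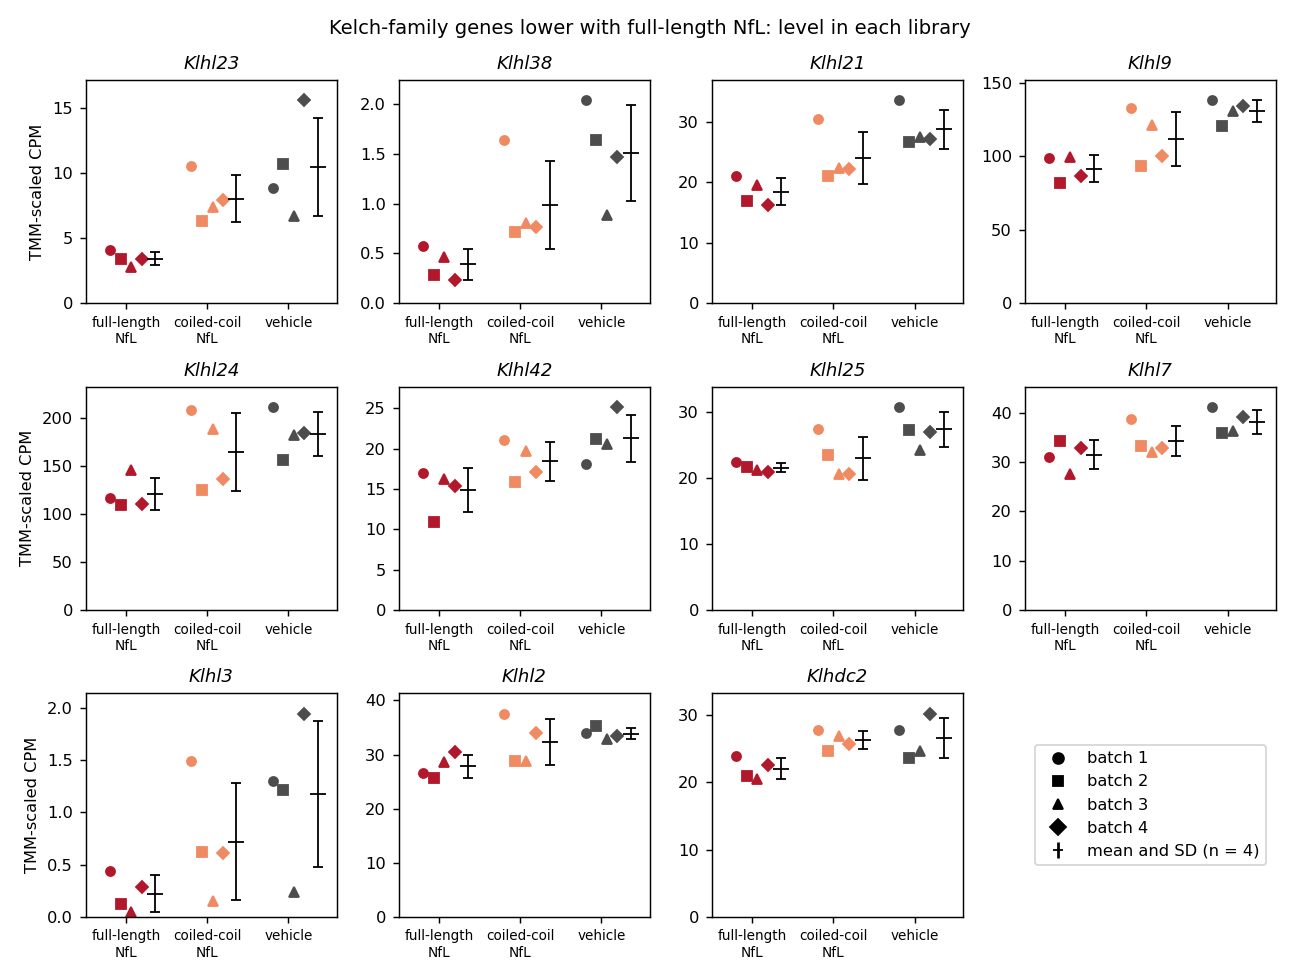
TMM-scaled CPM of the 11 lowered genes in each library, with full-length NfL left, coiled-coil NfL in the middle and vehicle right; symbols mark the batch and the cross with bars the mean and SD of 4 libraries. Klhl23 lies between 2.80 and 4.11 CPM in the full-length libraries, below all others, and Klhl3 overlaps between groups.

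Members that were not called included some of the most abundant of the family. Per kilobase of exon, the highest mean levels over all libraries were those of Klhdc3 at 31.5, Klhl9 at 26.7 and Klhl6 at 22.7 CPM per kilobase. Klhdc3, a CUL2 receptor gene, measured 87.5, 87.0, 84.8 and 88.8 CPM with full-length NfL, 76.3, 91.9, 77.3 and 83.5 CPM with coiled-coil NfL, and 74.0, 71.7, 84.4 and 72.6 CPM with vehicle. Every full-length library was above the vehicle library of its batch, and the change of 0.20 ± 0.07 (log2; edgeR adjusted p = 0.0635) passed the threshold with the replicate block (adjusted p = 0.0468). Its neighbour Mea1, on the other strand, overlaps its exons and rose by 0.56 (log2; edgeR adjusted p = 0.00644), and whether counting used strand is not given in the sources used here.

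Klhl6, an adaptor gene of lymphoid and myeloid cells, measured 56.1, 61.9, 65.9 and 70.0 CPM with full-length NfL, 64.98, 47.1, 67.0 and 57.3 CPM with coiled-coil NfL, and 56.0, 45.8, 56.8 and 60.3 CPM with vehicle. The groups overlapped, and the 95% interval of the full-length change ran from -0.05 to 0.47 (log2). Klhl12, whose product acts on COPII coats for collagen export, measured 12.6, 12.4, 12.8 and 11.2 CPM with full-length NfL, 13.0, 9.62, 8.33 and 8.87 CPM with coiled-coil NfL, and 11.6, 9.51, 8.32 and 9.55 CPM with vehicle. Its change of 0.33 ± 0.15 was not called (log2; edgeR adjusted p = 0.115). The replicate block gave 0.34 ± 0.11 (adjusted p = 0.0272), and the fit with the GC and length trend removed gave 0.54 ± 0.14 (adjusted p = 0.0162). Kbtbd2, whose product limits the p85-alpha subunit of phosphoinositide 3-kinase, measured 57.4, 74.9, 64.2 and 67.7 CPM with full-length NfL, 64.6, 69.3, 73.2 and 64.5 CPM with coiled-coil NfL, and 66.3, 81.9, 76.1 and 79.2 CPM with vehicle. It was lower in each batch but overlapped between groups, at -0.20 ± 0.09 (log2; edgeR adjusted p = 0.122). The block brought its adjusted p to 0.0256.

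The replicate block also called Klhl18, whose product targets the kinase Aurora A, at 0.22 ± 0.08 (log2; edgeR adjusted p = 0.0369), and Klhl29 at -0.90 ± 0.28 (adjusted p = 0.0212). Removing the GC and length trend called Klhdc10 at 0.28 ± 0.08 (log2; edgeR adjusted p = 0.0221) and Klhl15, the gene of an adaptor for a phosphatase PP2A subunit, at 0.46 ± 0.13 (adjusted p = 0.0217). In the fit without these terms Klhl18 stood at 0.22, Klhl29 at -0.94, Klhdc10 at 0.10 and Klhl15 at 0.23 (log2), none of them called.

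All 29 members that passed the filter without being called had changes between -0.94 and 0.33 (log2). Klhl5 and Klhl20 were close to level, with 95% intervals of -0.21 to 0.18 and -0.18 to 0.11. Klhl5 varied with the batch, which took 90.6% of the variance of its log2 level. Kbtbd6 and Kbtbd7, adaptors of the Rac activator TIAM1, are neighbours on chromosome 14 that share 24.7% and 16.2% of their 50-base windows with each other, so reads may be split between them. Kbtbd7 averaged 29.8 CPM with full-length NfL and 30.1 CPM with vehicle, and Kbtbd6 0.92 CPM with full-length NfL and 0.89 CPM with vehicle. Kbtbd4 shares 50% of its windows with Ptpmt1, which was higher by 0.42 (log2; edgeR adjusted p = 0.00931).

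Another 15 members did not pass the filter, with at most 7 counts in any library. Klhl1, Klhl14 and Klhl40 had 0 counts in all 12. They included genes known from skeletal muscle (Klhl31, Klhl40, Klhl41 and Kbtbd13), testis (Klhl10) and neurons (Klhl1). Just outside the filter were Klhl41, with 30 counts over all libraries, and Klhdc8a, with 26. Just inside were Klhl35, with 105, and Klhl33, with 119. Of the 40 that passed, 33 reached the filter's level in all 12 libraries, and the other 7 were Klhl29, Klhl38, Kbtbd6, Klhl3, Klhl32, Klhl33 and Klhl35.

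With coiled-coil NfL, none of the 14687 tested genes was called against vehicle (0%), and so no kelch-family gene. At an unadjusted p under 0.05 there were 1082 genes, 7.37% of those tested, among them the member Klhl25. DESeq2 called 33 genes, with no member among them. The changes of members ran from -0.79 to 0.61 (log2), with a median of -0.02. The coiled-coil change of Klhl23 was -0.38, with a 95% interval of -0.90 to 0.14, that of Klhl21 -0.26 (-0.55 to 0.03) and that of Klhl9 -0.22 (-0.47 to 0.02), and these intervals do not show an absence of change.

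Full-length against coiled-coil NfL gave 1 call among the members, Klhl23, with 2.72% of all tested genes called, 1.34% lower and 1.38% higher. The call was lost without full-length NfL replicate 2 or 4, coiled-coil NfL replicate 1, 3 or 4, or vehicle replicate 2. With the replicate block, 8 members were lower and none higher (Klhl23, Klhl21, Klhl38, Klhl9, Klhl3, Klhl24, Klhdc2 and Klhl13), beside 10.1% and 8.99% of all tested genes. The 20% of members called was near the 19.1% of all tested genes. With the block and the GC and length trend removed, 6 were lower and 3 higher, beside 7.64% and 15.7% of all tested genes. The 22.5% of members then called was near the 23.4% of all tested genes. Of the 11 genes lower with full-length NfL against vehicle, the other 10 were not shown to differ between the 2 NfL forms without the block. Both comparisons with vehicle share the same 4 vehicle libraries.

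Length and GC content were both checked, and the change of all genes varied more with length than with GC content. Members that passed had a median exon length of 4726 bases, beside 4132 for all tested genes, and a median GC content of 48% beside 49.3%. Over quartiles of exon length, from the shortest to the longest, the median change of all tested genes with full-length NfL against vehicle was 0.09, 0.02, -0.05 and -0.12 (log2). The share called lower was 5.34%, 8.78%, 12.5% and 16.8% over the same quartiles. Members had 1 of 3, 3 of 14, 4 of 9 and 3 of 14 called lower. Over quartiles of GC content, from the lowest to the highest, the medians of all tested genes were -0.04, -0.01, 0.02 and -0.04 (log2). The share called lower was 11.3%, 11.5%, 9.74% and 10.9%, and members had 5 of 15, 2 of 8, 2 of 7 and 2 of 10 called lower. Klhl23, Klhl38, Klhl21, Klhl9, Klhl25 and Klhl3 stayed lower with the trend removed, and Klhl24, Klhl42, Klhl7, Klhl2 and Klhdc2 were no longer called. The change of Klhl7 was then -0.25 ± 0.10 (log2; edgeR adjusted p = 0.0841), close to its -0.28 before. Klhl42 stood at -0.38 ± 0.15 (adjusted p = 0.0831) and Klhdc2 at -0.18 ± 0.09 (adjusted p = 0.159). With the trend removed and the block together, Klhl24, Klhl42 and Klhl7 were called lower again, and Klhl2 and Klhdc2 were not.

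**Figure D3:**
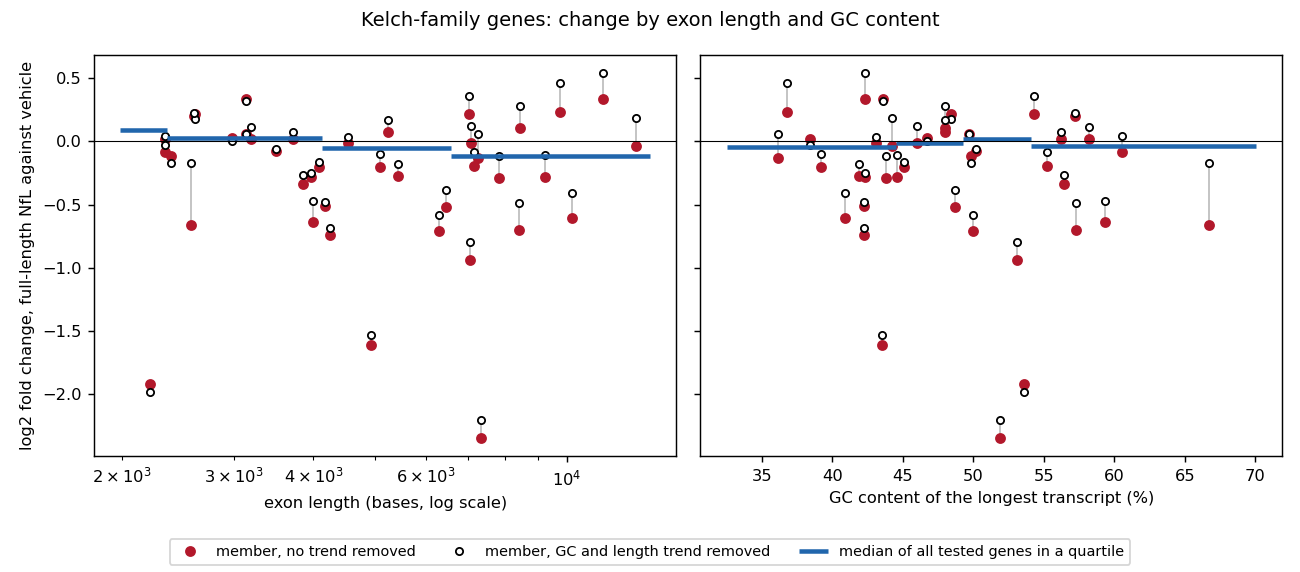
Log2 change with full-length NfL against vehicle of the 40 members by exon length (left, log axis) and GC content (right), before (red) and after (open) a trend on both was removed from each library; blue lines are medians of all tested genes in quartiles. The blue medians fall from 0.09 to -0.12 with length.

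Partners of the adaptors were read from lists of genes chosen for their roles. Of 18 genes of the CUL3 ligase core and its NEDD8 cycle, which activates cullins, 5 were higher and 2 lower with full-length NfL against vehicle (median log2 change 0.12). All counts for these lists stand beside 14% of all tested genes called higher, 10.9% called lower and a median of -0.02, and no list was tested as a set. The NEDD8-conjugating enzyme gene Ube2m averaged 107 ± 11.8 CPM with full-length NfL and 65.2 ± 3.39 CPM with vehicle (SD, n = 4 each), a log2 rise of 0.71 ± 0.09 (edgeR adjusted p = 0.000675). Cdc34, a ubiquitin-conjugating enzyme gene, rose by 0.48, and Uba3, part of the NEDD8-activating enzyme, by 0.31. Ube2d1 fell by 0.39 and Dcun1d4 by 0.55. Cul3 itself averaged 139 ± 5.56 CPM with full-length NfL and 132 ± 2.67 CPM with vehicle (log2 change 0.08 ± 0.06, edgeR adjusted p = 0.337).

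The COP9 signalosome removes NEDD8 from cullins, and 5 of its 10 genes were higher and none lower, beside 14% and 10.9% of all tested genes, with a median log2 change of 0.23. Cops5, the catalytic subunit, averaged 82.4 ± 6.20 CPM with full-length NfL and 57.1 ± 5.22 CPM with vehicle (log2 change 0.53 ± 0.10, edgeR adjusted p = 0.00317). Cops6 rose by 0.38 and Cops9 by 0.42. Among 10 genes of CUL2 ligases, the adaptors Eloc and Elob rose by 0.42 and 0.43 and Zer1 fell by 0.44. Cul2 had a change of 0.14 ± 0.06 that was not called (edgeR adjusted p = 0.0853).

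Kelch-BTB genes whose symbols lie outside the rule had 2 of 5 lower and none higher, beside 10.9% and 14% of all tested genes. With the block, 2 were lower and 1 higher, beside 22.4% and 21.4%. Enc1 averaged 54.4 ± 19.9 CPM with full-length NfL and 159.6 ± 37 CPM with vehicle (log2 change -1.55 ± 0.30, edgeR adjusted p = 0.00422), and was also lower against coiled-coil NfL, at -1.24 ± 0.30 (adjusted p = 0.0496). Ivns1abp fell by 0.46. Keap1 had a change of 0.34 ± 0.14 that was not called (edgeR adjusted p = 0.102), at 75.2 ± 8.46 CPM with full-length NfL and 59.2 ± 12.2 CPM with vehicle. Each full-length library of Keap1 lay above the vehicle library of its batch. Nfe2l2, which encodes the KEAP1 target NRF2, fell by 0.51 ± 0.11 (log2; edgeR adjusted p = 0.0079).

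The 29 BTB adaptors without kelch repeats had 3 higher and 5 lower, with a median log2 change of -0.06, and their 8 calls are near the background of 24.9% of all tested genes. Kctd12, Kctd9 and Btbd10 rose by 0.72, 0.37 and 0.35, and Btbd6, Kctd11 and Abtb1 fell by 0.58, 0.44 and 0.73. Among 19 tested genes whose products are substrates of these ligases, 3 rose and 3 fell, near the background of 14% and 10.9% of all tested genes. The COPII coat gene Sec31a, whose product KLHL12 modifies, rose by 0.32, Eif4ebp1, which encodes 4E-BP1, by 0.87 and Tcof1 by 0.37. Besides Nfe2l2, the KLHL20 target gene Dapk1 fell by 0.71 and Rc3h2, a target of KLHL6, by 0.32. Levels of mRNA do not show whether a ligase acted on these proteins.

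**Figure D4:**
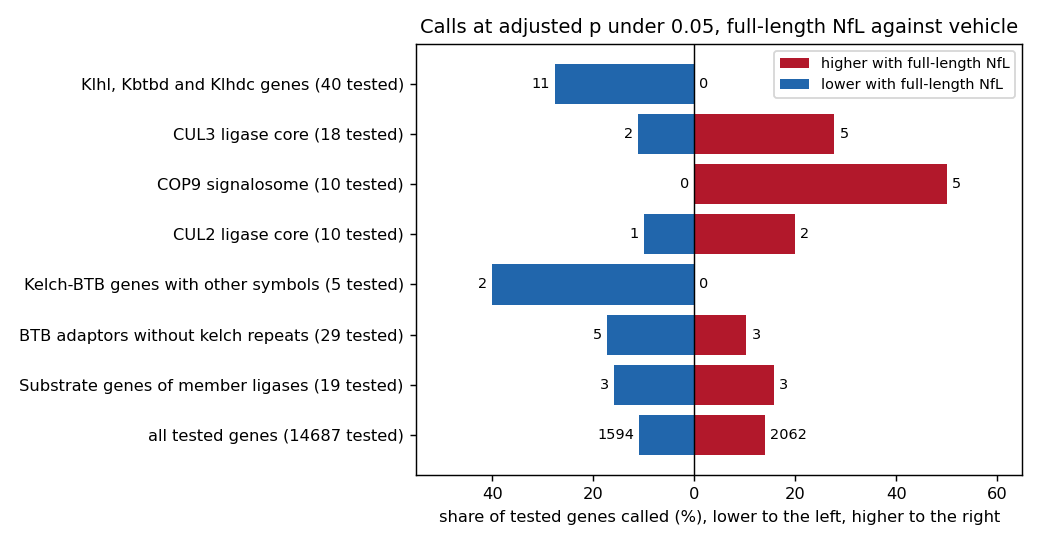
Share of tested genes called higher (right) or lower (left) with full-length NfL against vehicle, at an adjusted p under 0.05, for the kelch-family genes, 6 lists of related genes and all tested genes; numbers at the bars are gene counts. In this fit without the batch block, the kelch-family bar lies to the left only, with 11 genes. The COP9 signalosome bar lies to the right only, with 5.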

How the data were processed

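Whole-number counts of reads, not normalized by the authors, were deposited for each Ensembl gene and each of the 12 libraries. Per the labels' protocols, a strand-specific poly(A) library kit was used, with single-end reads of 50 bases. Reads were aligned to GRCm38 with GSNAP, per the submitters' processing notes. For the aligner's version, the counter, its gene annotation and its use of strand, nothing is given in the sources used here.

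Symbols, positions and exon lengths (union of exons) came from GENCODE M21 (GRCm38), which named 99.7% of the identifiers, and GC content from the longest transcript. The release used for counting may differ. Genes were kept with edgeR's filterByExpr (minimum count 10), which left 14687 genes with 99.9% of the counts. Libraries were scaled with TMM factors and the 3 groups were fitted together by quasi-likelihood, leaving 9 residual degrees of freedom (R 4.3.3, edgeR 4.0.16), with two-sided F tests and Benjamini-Hochberg adjustment at 0.05. CPM are TMM-scaled, SE come from the F statistic, and 95% intervals use the model's degrees of freedom.

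The main fit holds group means only and leaves the pairing out, and the replicate block is the alternative fit. The labels give each replicate number its own batch, so the numbers pair the samples. After group means were removed, same-numbered libraries correlated across genes at 0.306 to 0.735 (12 of 12 pairs over 0.1). Libraries of different numbers and groups ran from -0.461 to 0.445 (8 of 36 pairs over 0.1), so the 2 ranges overlap. For the GC and length fit, the log2 CPM deviations (prior count 2) of each library were fitted with splines of 4 degrees of freedom on GC content and log2 exon length, and the fitted values became offsets. Other alternatives were RLE and upper-quartile factors, DESeq2 1.42.0, other low-count filters, only the 2 groups compared, and leaving out each library. Scripts were tested on simulated data. The first fit used edgeR's robust estimation. It was replaced by the default, which earlier processing of these data used, after its calls had been seen, and is kept as an alternative added after seeing the data.

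The members and the lists were chosen with earlier results of these data known. Values in every library are given for members called in a comparison, the 3 highest per kilobase, and Klhl6, Klhl2, Klhl12, Klhl21, Kbtbd2, Klhdc2 and Klhdc3 whatever their result. Klhl13, and the members that only the block or the offset called, were named after their values were seen. From each list, up to 3 called genes in each direction with the smallest p are named, with Cul3, Cul2, Keap1 and Nfe2l2 whatever their result.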

Additional observations from a re-analysis of the deposited data

Results flagged for a closer look

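In 3 of 45 checks of a member's 4 libraries within a group, 1 library stood far from the other three by Dixon's criterion, where chance gives about 1 in 20. All 3 were batch 1 libraries. Klhl21 was high at 30.4 CPM in coiled-coil NfL replicate 1, where the others lay between 21.0 and 22.4 CPM, and at 33.6 CPM in vehicle replicate 1, where the others lay between 26.6 and 27.5 CPM. Klhl38 was high at 1.64 CPM in coiled-coil NfL replicate 1, against 0.715 to 0.803 CPM in the others.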

How the results depend on the processing

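Against vehicle, full-length NfL called 11 members. The count was 7 with no low-count filter, 17 with the replicate block, 17 with the block plus the GC and length offset, and 5 to 12 on leaving out single libraries. As shares, 13.5% of members were called with no filter, 42.5% with the block and 42.5% with the block plus the offset, near the 11%, 43.8% and 46.5% of all tested genes, so the counts moved with the background. Between the NfL forms the count of 1 became 8 (20%) with the block and 9 (22.5%) with the block plus the offset. These shares were near the 19.1% and 23.4% of all tested genes. The count was 0 to 1 without single libraries. For coiled-coil NfL against vehicle it was 0 in every alternative run. Robust estimation, the setting first used and replaced after its calls were seen, called the same number of members, 11, and 3635 genes in all against 3656. With the block it called 18 members, 15 of them lower, and 8 between the NfL forms. The 18 were 45% of members, near the 43.8% of all tested genes, and 37.5% were lower, beside 22.4%. The 8 were 20%, near the 18.9% of all tested genes.

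Genes called with full-length NfL against vehicle numbered 6432 with the block and 6831 with the block plus the offset. The share of higher genes among the calls was 56.4%, but 45.8% with upper-quartile factors and 68.7% with the offset. Between the NfL forms, 399 genes were called, 50.6% of them higher; there were 2806 with the block, 3430 with the block plus the offset, 1425 with DESeq2 and 168 with only the 2 groups compared, and the higher share was 69.9% with the offset and 67.3% with the block plus the offset.

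With the block plus the offset, the called genes of the lists became 14 (CUL3 core, 12 higher and 2 lower of 18), 8 (COP9, all higher, of 10) and 5 (CUL2, all higher, of 10). They became 14 of 29 for BTB adaptors without kelch repeats (9 higher and 5 lower) and 14 of 19 for substrates (11 higher and 3 lower). In that fit 46.5% of all tested genes were called, 28.5% higher and 18% lower. With the block alone these BTB adaptors and substrates had 13 and 12 calls, beside 43.8% of all tested genes. Robust estimation with the block gave 13 and 11. COP9 calls were 3 with upper-quartile factors and CUL2 calls 1 with no filter. Calls among kelch-BTB genes of other symbols were 1 with the offset and 3 with the block (2 lower and 1 higher). Without single libraries the counts ran over 6 to 8 (CUL3 core), 3 to 5 (COP9), 1 to 4 (CUL2), 1 to 2 (other symbols), 6 to 8 (BTB without kelch) and 4 to 7 (substrates). The cause of these changes was not tested.

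For the 15 members described by library, no full-length change against vehicle turned in sign under any alternative; a call was lost 58 times and gained 15 times. Uncalled changes near 0 did turn. For coiled-coil NfL against vehicle, Klhdc2 reached 0.0021 with the block plus the offset and ran from -0.0698 to 0.0512 without single libraries, and Klhl12 from -0.129 to 0.1265. Between the NfL forms, Kbtbd2 reached 0.0026 with the offset and ran from -0.1018 to 0.0288 without single libraries, and Klhl25 from -0.1384 to 0.0116. Klhl38 and Klhl3 could not be tested under the filter of 1 CPM. They had as few as 5 and 1 counts in a library, which limits their precision.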
